A study of Rattus norvegicus with 12 samples.

Results

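This account covers the circular RNA probes of a rat array that share sequence with each other. Members are the probes with the prefix RNO_CIRCpedia, which refers to the circular RNA collection CIRCpedia, whose 60-base sequence shares a run of at least 20 bases on the same strand with another such probe and none with any probe of the array's other class, prefixed rclstr. By this rule, applied to the deposited probe sequences, 938 of 3046 CIRCpedia probes were members, out of 60148 distinct probes on the array. Sequence alone chose them and no measured value entered the rule. Among them, 906 were linked to at least 1 other member and formed 357 families, and 32 had a partner that itself matched an rclstr probe.

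The samples were total RNA from rat brain on 12 one-colour arrays, 4 in each of 3 groups. The control group is labelled as normal brain. The model group is labelled as sampled at 7 days after embolization of the middle cerebral artery, a stroke model that blocks the arterial supply of part of a hemisphere. The BHD group is labelled as the same model after an intervention with Buyang Huanwu Decoction, a herbal mixture of Chinese medicine, likewise at 7 days, with no dose given. The strain field reads male and names no strain. The descriptions name the hippocampus where the tissue field says brain, and the series design text applies the embolization to all groups, which the label of the control samples does not. Labelling began from a primer of T bases that pairs with runs of A, and no step that removes linear RNA is stated, so a signal here need not come from a circle. No file pairs these probes with genes, so probes are given by identifier and sequence, and the labelled tissue could not be checked against marker genes. In such tissue RNA, fewer cells of a type and less RNA per cell cannot be told apart.

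A circular RNA forms when the end of an exon, its splice donor, is joined to the start of the same or an earlier exon, its splice acceptor. This back-splicing closes the RNA into a loop with a joint found in no ordinary linear transcript. A gene can give several circles that use the same donor with different acceptors, or the same acceptor with different donors. Circular RNAs are abundant in brain, and many accumulate in neurons and at synapses. A probe for a circle is laid across the joint, so circles with an exon end in common have probes with that stretch in common.

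The probe letters showed where the joint lies. Counted from 1 at the 5′ end, it was read at 45 bases less the second number of the probe name, a reading taken from the sequences, since no source used here explains the name. In 661 of the 665 family pairs, the shared runs lay over each other when the 2 probes were aligned at this point. That count rests on differences between the second numbers and does not test the value of 45. The last 2 bases before it were AG in 62.9% of members and in 56.2% of the other CIRCpedia probes, against 9.54% of all 2-base windows at bases 20 to 51 of the members. The last base was G in 81.2% of members and the next base was G in 45.6%, the letters common at exon ends and starts. Since the joint was read from the same letters, these shares describe the reading and do not test it. The joint lay after base 29 in 290 members, after bases 30 to 44 in 562 and after base 45 in 86. Shared runs were 20 to 57 bases long with a median of 29, and 30 pairs shared only 20 or 21 bases, next to the limit of the rule. In 438 pairs the shared run lay before the joint, which is a common donor end, allowing up to 4 bases of chance extension past it. In 218 pairs it lay after the joint, with the same allowance, which is a common acceptor start. In 5 pairs it spanned the joint and in 4 it lay otherwise.

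The families on which the results below turn are printed 5′ to 3′ from the deposited probe sequences, with the bases shared with at least 1 other family member in capitals. The first shows donor and acceptor sharing in a single family: 3 probes share the exon end that closes in ctaaag, and 1 of these shares the exon start that opens with gaatggtgg with the remaining 2.
RNO_CIRCpedia_667_7_19: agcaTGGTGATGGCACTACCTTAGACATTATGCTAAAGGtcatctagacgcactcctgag
RNO_CIRCpedia_668_16_27: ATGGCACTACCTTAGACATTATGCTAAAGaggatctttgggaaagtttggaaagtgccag
RNO_CIRCpedia_669_11_20: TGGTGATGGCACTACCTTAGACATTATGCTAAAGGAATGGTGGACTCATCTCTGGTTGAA
RNO_CIRCpedia_673_16_19: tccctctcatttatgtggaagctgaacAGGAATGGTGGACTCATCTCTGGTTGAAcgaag
RNO_CIRCpedia_674_11_12: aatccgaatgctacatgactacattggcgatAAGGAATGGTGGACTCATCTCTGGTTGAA
The next family has 4 probes with a common exon end that closes in cttcaaag. Of these, 1 shares its exon start with 1 probe of a further pair, which is joined by another exon end.
RNO_CIRCpedia_4798_16_15: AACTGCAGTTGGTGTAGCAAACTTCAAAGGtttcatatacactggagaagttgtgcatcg
RNO_CIRCpedia_7392_12_20: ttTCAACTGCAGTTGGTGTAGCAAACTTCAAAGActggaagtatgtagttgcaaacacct
RNO_CIRCpedia_864_16_24: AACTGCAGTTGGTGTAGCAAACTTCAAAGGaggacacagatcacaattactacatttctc
RNO_CIRCpedia_865_14_1003: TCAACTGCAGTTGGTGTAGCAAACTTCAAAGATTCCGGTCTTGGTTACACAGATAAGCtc
RNO_CIRCpedia_866_12_20: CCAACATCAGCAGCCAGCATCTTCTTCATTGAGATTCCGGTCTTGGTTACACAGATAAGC
RNO_CIRCpedia_9148_0_17: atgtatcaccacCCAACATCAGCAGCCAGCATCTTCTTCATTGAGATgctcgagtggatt
In a family of 4 probes with the exon end closing in atgcag, 3 rose with BHD against control.
RNO_CIRCpedia_2503_0_22: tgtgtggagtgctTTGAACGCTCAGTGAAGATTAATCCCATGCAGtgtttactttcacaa
RNO_CIRCpedia_2504_16_22: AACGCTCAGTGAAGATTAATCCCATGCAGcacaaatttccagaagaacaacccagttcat
RNO_CIRCpedia_5380_16_70: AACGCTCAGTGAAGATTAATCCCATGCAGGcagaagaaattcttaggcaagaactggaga
RNO_CIRCpedia_5381_13_20: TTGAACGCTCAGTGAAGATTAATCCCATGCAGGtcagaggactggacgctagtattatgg
The following pairs each share an exon end and are shown because their partners moved together, in the first pair, or apart, in the other 4. The last pair is part of a family of 6 probes, whose remaining probes are not shown. In its second probe, the capitals after the joint mark bases shared with a probe not shown.
RNO_CIRCpedia_2816_2_14: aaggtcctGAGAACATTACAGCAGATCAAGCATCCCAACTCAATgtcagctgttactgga
RNO_CIRCpedia_2817_10_33: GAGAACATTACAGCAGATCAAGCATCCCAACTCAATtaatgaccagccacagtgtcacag
RNO_CIRCpedia_8928_0_16: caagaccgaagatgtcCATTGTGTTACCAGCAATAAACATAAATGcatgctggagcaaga
RNO_CIRCpedia_8929_16_7: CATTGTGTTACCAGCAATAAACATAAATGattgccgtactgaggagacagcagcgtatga
RNO_CIRCpedia_6416_0_22: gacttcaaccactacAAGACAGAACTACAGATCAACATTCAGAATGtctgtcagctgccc
RNO_CIRCpedia_8340_15_28: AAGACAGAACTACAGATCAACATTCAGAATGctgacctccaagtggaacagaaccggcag
RNO_CIRCpedia_10096_16_19: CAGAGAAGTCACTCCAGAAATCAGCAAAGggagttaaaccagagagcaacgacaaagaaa
RNO_CIRCpedia_4172_0_26: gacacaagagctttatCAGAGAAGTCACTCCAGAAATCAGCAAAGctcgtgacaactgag
RNO_CIRCpedia_4041_0_10: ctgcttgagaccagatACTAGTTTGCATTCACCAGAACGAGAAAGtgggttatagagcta
RNO_CIRCpedia_8819_16_44: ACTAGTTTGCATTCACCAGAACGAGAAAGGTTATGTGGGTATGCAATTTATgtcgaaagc

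Of the 357 families, 249 were pairs of probes, 60 held 3, 28 held 4, 11 held 5, 3 held 6, 5 held 7 and 1 held 8. Donor ends alone tied 214 families together, acceptor starts alone 72 and both kinds 68, with 3 held by neither. The members' GC content ran from 40% to 46.7% with a median of 45%, the same median as in the other CIRCpedia probes. A probe was tested if all arrays of some group read it well above background, which 896 members met (95.5%, against 95.8% of the other CIRCpedia probes and 74.3% of all probes). The other 42 members were not tested, and 18 members were not well above background on any array. On all 12 arrays, 875 members were well above background.

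Levels below are log2 signals less each array's 75th percentile, so a level of 0 equals that percentile and a difference of 1 is 2-fold. Changes are differences of group means of such levels, tested with limma over all 44719 tested probes and called at an adjusted p under 0.05 (Benjamini-Hochberg). Slide 1 held the control arrays in row 1 and the model arrays in row 2. Slide 2, scanned separately, held the BHD arrays in row 1. A difference of BHD from either other group therefore cannot be told apart from a difference between slides, nor one between model and control from a difference between rows. Model and BHD are each compared with the control, and BHD with the model, so the 3 comparisons share arrays.

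Most families had a constant brightest probe. In 277 of the 339 families with at least 2 tested members (81.7%), the same probe gave the highest signal on all 12 arrays. No share for unrelated probes stands beside this one, so whether it is particular to families cannot be told. Signals of different probes depend on how well each binds, so this is an order of signals and not of RNA amounts. The brightest probe lay a median of 0.71 log2 units above the next (quartiles 0.25 and 1.52). In the 62 families without a constant brightest probe, that gap had a median of 0.068, with a largest value of 1.81. The brightest probe had the latest joint in its family in 219 of 302 families with unequal joints and the earliest in 70. It had the highest GC content in 136 of 252 families with unequal GC. The brightest of all was RNO_CIRCpedia_4105_16_28, at 4.49 ± 0.14 in control, 4.56 ± 0.053 in model and 4.40 ± 0.24 in BHD arrays (SD, n = 4 each). Its partner RNO_CIRCpedia_4104_16_23, with a common exon end, followed at 4.24 ± 0.093, 4.35 ± 0.062 and 4.11 ± 0.23. Neither passed the test in any comparison. The next family was led by RNO_CIRCpedia_3179_16_31, at 4.34 ± 0.1 in control, 4.12 ± 0.12 in model and 4.12 ± 0.057 in BHD arrays. Its 4 partners lay lower in every group, with group means between 0.75 and 1.99. Of this family only RNO_CIRCpedia_3181_16_32 was called, as lower with BHD against control (-0.29 ± 0.078 SE, adjusted p = 0.0383, limma). That call was lost in 10 of 24 other settings. The third family was led by RNO_CIRCpedia_5727_0_8, at 3.91 ± 0.085, 3.89 ± 0.15 and 3.80 ± 0.1. It shares a run of 30 bases at the exon end with RNO_CIRCpedia_5726_16_10, at -1.86 ± 0.11, -2.01 ± 0.089 and -1.61 ± 0.085. The leading probe was not called in any comparison, while the dimmer partner rose with BHD against the model (0.41 ± 0.079 SE, adjusted p = 0.0198), and the changes of the pair differed by 0.495 ± 0.11 SE, adjusted p = 0.0182 (limma over pairs, explained below). The rise was 0.268 with normexp and lost its call on leaving out model replicate 2 or 3, or BHD replicate 1 (adjusted p up to 0.0603). The call of the pair was lost on leaving out model replicate 2 or BHD replicate 1 and in the fit of only those 2 groups (adjusted p up to 0.0553).

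By group mean, the brightest probe differed between groups in 26 families, between control and model in 15 and between model and BHD in 20. The 3 families in which the order changed most are given here. In a family of 7 probes, RNO_CIRCpedia_4061_14_18 read -0.24, 0.0665, 0.26 and 0.078 on the control arrays and 0.0202, -0.175, -0.33 and -0.28 on the model arrays, and -0.37, 0.0011, -0.37 and -0.44 on the BHD arrays. RNO_CIRCpedia_4050_1_8 read -0.35, -0.17, -0.15 and -0.18, then -0.14, -0.13, -0.30 and -0.28, then -0.27, 0.0233, -0.15 and -0.355 in the same order of groups. The first was brightest by mean in control and model arrays and the second in BHD arrays, and the ranges of the groups overlapped for both. The change of RNO_CIRCpedia_4061_14_18 from control to BHD was -0.33 ± 0.13 SE, adjusted p = 0.12, which did not pass. Its acceptor partner RNO_CIRCpedia_4051_15_1010 had a change of 0.0367, and the difference between these changes did pass (0.37 ± 0.077 SE, adjusted p = 0.0124, limma). In a family of 3, RNO_CIRCpedia_8329_0_15 was brightest by mean in control and BHD arrays and RNO_CIRCpedia_4956_14_19 in model arrays. In another, RNO_CIRCpedia_6197_10_16 led in control and RNO_CIRCpedia_6196_13_18 in model and BHD arrays. No probe of these 2 families was called in any comparison.

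Partners changed in the same direction more often than unrelated probes, which is given as a description without a test, since pairs share probes. The changes of the 2 partners had the same sign in 469 of 609 tested family pairs between model and control (77%), in 404 between BHD and model (66.3%) and in 419 between BHD and control (68.8%). Among CIRCpedia pairs without shared sequence the shares were 51.5%, 51% and 50%, and among the 1650 other pairs on the array that share sequence they were 82%, 76.3% and 79.1%. The size of the difference between the changes of partners had a median of 0.068, 0.112 and 0.11 log2 units in these comparisons, against 0.153, 0.158 and 0.202 in CIRCpedia pairs without shared sequence. Array by array, the spread of the difference between partners within groups was a median of 0.62 times what independent probes with their spreads would give (quartiles 0.451 and 0.837). That ratio was 0.975 in the pairs without shared sequence. It was 0.708 over the 134 pairs sharing 20 to 28 bases, 0.63 over the 321 sharing 29 to 31 and 0.517 over the 154 sharing more. Pairs with a common donor end had a median ratio of 0.574 and pairs with a common acceptor start 0.696. Partners share part of their sequence and may bind the same RNA, and its part in these values was not tested.

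The comparison of model with control asks which circular RNAs differ 7 days after the artery is blocked. No single member passed the test. Unequal change of partners was called in 1 family pair, a share close to that of all pairs sharing sequence. Of 896 tested members 0 were called by limma, where 0.047% of all tested probes were. At an unadjusted p under 0.05 there were 123 (13.7%), against 17.6% of all tested probes. The members' median change was -0.047, against -0.027 for the other CIRCpedia probes and 0.0025 for all tested probes. A change above 0 was found in 36.5% of members and in 50.6% of all tested probes. The lowest and highest changes of a member were -1.29 and 1.29.

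To ask whether partners changed unequally, the difference between their levels within each array was tested with limma over all 2259 pairs of probes on the array that share at least 20 bases and were both tested, 609 of them family pairs. Between model and control 1 family pair was called (0.164%), against 0.177% of all such pairs. RNO_CIRCpedia_8928_0_16 read -0.66, -0.71, -0.76 and -0.77 on the control arrays, -0.45, -0.57, -0.435 and -0.40 on the model arrays and -0.56, -0.46, -0.44 and -0.49 on the BHD arrays. It was higher on every model and BHD array than on any control array. RNO_CIRCpedia_8929_16_7, which has the same 29 bases before its joint, read -0.74, -0.99, -0.66 and -0.94 on the control arrays, -1.20, -1.19, -1.38 and -1.18 on the model arrays and -1.17, -1.31, -1.02 and -1.17 on the BHD arrays. It was lower on every model and BHD array than on any control array. The level of the first over the second was 0.11 ± 0.16 in control arrays, 0.77 ± 0.14 in model arrays and 0.68 ± 0.12 in BHD arrays (SD, n = 4). The difference of changes was 0.66 ± 0.093 SE, adjusted p = 0.036 between model and control and 0.57 ± 0.093 SE, adjusted p = 0.00338 between BHD and control. Between BHD and model it was -0.0928 ± 0.093 SE, adjusted p = 0.613, which did not pass. Neither probe passed alone between model and control (adjusted p = 0.118 and 0.112). Between BHD and control both passed alone in limma, in opposite directions. The changes were 0.239 ± 0.063 SE, adjusted p = 0.0363 and -0.333 ± 0.094 SE, adjusted p = 0.0453. Those 2 calls were lost in 9 and 17 of 24 other settings. The call of the pair between model and control was lost in 10 of 24 other settings, where the adjusted p ran from 0.0159 to 0.109 over all 24. Fitting only those groups was such a setting. It was also lost on leaving out control replicate 1, 3 or 4, model replicate 1, 3 or 4, or BHD replicate 4, an array that bears on this comparison through the pooled spread.

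The comparison of BHD with model asks which RNAs differ in model animals given the decoction. Rises were more frequent than falls: RNO_CIRCpedia_10096_16_19 and RNO_CIRCpedia_7966_16_26 rose most and RNO_CIRCpedia_9123_14_11 and RNO_CIRCpedia_4762_13_27 fell most. Of 896 members 36 were called (4.02%, against 3.19% of all tested probes), 29 higher with BHD (3.24%, against 0.691%) and 7 lower (0.781%, against 2.5%). With normexp background correction the split was 21 higher and 11 lower. The median change was 0.040 among members, 0.0186 among the other CIRCpedia probes and -0.023 among all tested probes. Called changes of members had a median size of 0.509. Leaving out model replicate 1 gave 21 calls, model replicate 2 gave 19, model replicate 3 gave 22 and model replicate 4 gave 19. Leaving out BHD replicate 1 gave 11 and BHD replicate 3 gave 18. It was 18 in the fit of only those 2 groups.

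RNO_CIRCpedia_10096_16_19 read -5.12, -4.88, -4.72 and -4.68 on the control arrays, -5.79, -5.20, -4.90 and -5.18 on the model arrays and -4.28, -4.06, -4.21 and -4.41 on the BHD arrays. Every BHD array was higher than any array of the other groups, and the signal was well above background on 3 of the 4 model arrays. The rise over the model was 1.03 ± 0.17 SE, adjusted p = 0.00998, or 2.04-fold. With normexp, whose offset of 50 units makes the changes of dim probes smaller, it was 0.231. Its partner RNO_CIRCpedia_4172_0_26, with the same 29 bases before the joint, stood at -2.19 ± 0.11, -2.22 ± 0.13 and -2.26 ± 0.1 in control, model and BHD arrays. Its change of -0.0358 ± 0.089 SE, adjusted p = 0.899 did not pass. The changes of these partners differed by 1.06 ± 0.15 SE, adjusted p = 0.0012, or 0.297 with normexp. The second rise, of RNO_CIRCpedia_7966_16_26, was 0.78 ± 0.14 SE, adjusted p = 0.0143, from -4.51, -4.44, -4.70 and -4.20 on the model arrays to -3.79, -3.53, -3.53 and -3.86 on the BHD arrays, with no overlap. With normexp it was 0.219 and the call was lost (adjusted p = 0.109). The partner of this probe was not picked by the naming rule and is not given.

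RNO_CIRCpedia_9123_14_11 read 1.68, 1.67, 1.63 and 1.66 on the control arrays, 1.58, 1.58, 1.68 and 1.46 on the model arrays and 1.03, 0.90, 1.14 and 1.00 on the BHD arrays. All BHD arrays were lower than all others, and the fall from the model was -0.56 ± 0.071 SE, adjusted p = 0.00341. It held in every setting tried (-0.598 to -0.515). RNO_CIRCpedia_9123_14_11 is part of a family of 3 probes, whose remaining probes were not picked by the naming rule and are not given. RNO_CIRCpedia_4762_13_27, a member linked to no other member, read 3.09, 3.04, 2.91 and 2.83 on the model arrays and 2.63, 2.74, 2.41 and 2.21 on the BHD arrays. Its fall was -0.47 ± 0.11 SE, adjusted p = 0.046, and 18 of 24 other settings lost the call (adjusted p 0.0134 to 0.124 over all 24), including each setting that left out a control or model replicate or BHD replicate 1, 3 or 4.

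In 2 families at least 2 members moved the same way with BHD against the model. In the family closing in cttcaaag, 3 of the 4 probes with that exon end rose. RNO_CIRCpedia_4798_16_15 read -4.43, -4.19, -4.56 and -4.40 on the model arrays and -3.80, -3.82, -3.81 and -3.71 on the BHD arrays (0.61 ± 0.091 SE, adjusted p = 0.00591). RNO_CIRCpedia_7392_12_20 read -3.31, -3.77, -3.42 and -3.56 and then -2.70, -3.07, -2.87 and -2.74 (0.67 ± 0.11 SE, adjusted p = 0.00925). RNO_CIRCpedia_865_14_1003 read -3.31, -3.52, -3.70 and -3.37 and then -3.04, -2.97, -2.99 and -2.78 (0.53 ± 0.11 SE, adjusted p = 0.0277). The BHD arrays were above the model arrays in all 3 of these probes, with no overlap. The fourth, RNO_CIRCpedia_864_16_24, was well above background on 2 of 4 model arrays and had a change of 1.03 ± 0.27 SE, adjusted p = 0.067, which did not pass. The pair that shares other exon ends differed: RNO_CIRCpedia_866_12_20 read 0.90, 0.735, 0.71 and 0.85 on the model arrays and 0.95, 0.745, 0.76 and 0.86 on the BHD arrays, and its ranges overlapped. Its change was 0.0294 ± 0.075 SE, adjusted p = 0.903, and that of RNO_CIRCpedia_9148_0_17 was -0.0895 ± 0.09 SE, adjusted p = 0.694. The change of RNO_CIRCpedia_865_14_1003 differed from that of RNO_CIRCpedia_866_12_20, with which it shares its exon start, by 0.50 ± 0.088 SE, adjusted p = 0.00537. With normexp the changes of RNO_CIRCpedia_4798_16_15, RNO_CIRCpedia_7392_12_20 and RNO_CIRCpedia_865_14_1003 were 0.192, 0.262 and 0.25, the first and last lost their calls (adjusted p = 0.0845 and 0.0685), and the difference between RNO_CIRCpedia_865_14_1003 and RNO_CIRCpedia_866_12_20 was 0.207 (adjusted p = 0.0552). RNO_CIRCpedia_865_14_1003 also lost its call on leaving out model replicate 2 or 3, or BHD replicate 1, 3 or 4.

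The other family fell. RNO_CIRCpedia_558_0_70 read 0.54, 0.605, 0.59 and 0.62 on the model arrays and 0.20, 0.17, 0.34 and 0.27 on the BHD arrays (-0.34 ± 0.072 SE, adjusted p = 0.0294). RNO_CIRCpedia_565_16_17 read 0.76, 0.68, 0.68 and 0.68 and then 0.35, 0.46, 0.47 and 0.45 (-0.27 ± 0.061 SE, adjusted p = 0.0384). Every BHD array was below every model array for both. The third probe, RNO_CIRCpedia_564_14_20, with the same exon end, had a change of -0.21 ± 0.057 SE, adjusted p = 0.0716, which did not pass here but did against control (-0.24 ± 0.057 SE, adjusted p = 0.0246). The differences between the changes of these 3 probes did not pass (adjusted p 0.255 to 0.518 between BHD and model). Both calls against the model were lost on leaving out any model replicate or BHD replicate 1 or 2. That of RNO_CIRCpedia_565_16_17 was also lost on leaving out BHD replicate 3 or 4, or control replicate 1, 2 or 4. The call of RNO_CIRCpedia_564_14_20 against control was lost in 6 of 24 other settings (adjusted p 0.017 to 0.0666 over all 24), among them leaving out control replicate 2, 3 or 4, or BHD replicate 1.

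Unequal change of partners was called in 80 of 609 family pairs between BHD and model (13.1%, against 8.63% of all pairs sharing sequence), in 62 families. In 74 of the 80 the brighter partner, by its mean over all arrays, moved down against the dimmer, as it did in 416 of all 609, called or not. The share called was 5.32% of 357 pairs with a level gap under 1, 17.6% of 125 with a gap of 1 to 2 and 30.7% of 127 with a wider gap. Both partners were well above background on all 12 arrays in 78 of the 80 and in 587 of the 609. The partner with the higher GC content moved down in 45 of the 80 and up in 15, with 20 of equal GC. No count over all 609 pairs stands beside these. The median size of the difference was 0.386, and in 2 pairs it was 2-fold or more. Among the other pairs sharing sequence, 115 were called and the brighter moved down in 102.

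The smallest adjusted p among the family pairs was in the family closing in ctaaag, which was picked out for this after its values were seen. RNO_CIRCpedia_668_16_27, the dimmest of the family, read -0.64, -0.60, -0.55 and -0.55 on the control arrays, -1.06, -0.61, -0.445 and -0.76 on the model arrays and -0.63, -0.77, -0.40 and -0.42 on the BHD arrays, and the groups overlapped. RNO_CIRCpedia_669_11_20 read 2.94, 2.95, 2.87 and 2.90, then 2.48, 2.91, 3.07 and 2.68, then 2.27, 2.09, 2.43 and 2.45 in the same order, with every BHD array below all others. Within each array, the first less the second was -3.58, -3.55, -3.42 and -3.45 in control, -3.54, -3.52, -3.51 and -3.44 in model and -2.90, -2.87, -2.84 and -2.87 in BHD arrays. On slide 1 the difference kept to a narrow range while the levels of both probes varied more widely between the model arrays. The difference of changes was 0.63 ± 0.041 SE, adjusted p = 1.54e-05 between BHD and model and 0.63 ± 0.041 SE, adjusted p = 1.57e-05 between BHD and control. Between model and control it was -0.0004 ± 0.041 SE, adjusted p = 0.998. RNO_CIRCpedia_667_7_19, the brightest of the family, read 3.31, 3.30, 3.21 and 3.25 on the control arrays, 2.85, 3.26, 3.42 and 2.97 on the model arrays and 2.59, 2.35, 2.77 and 2.78 on the BHD arrays. Its change between BHD and model differed from that of RNO_CIRCpedia_669_11_20 by -0.0232 ± 0.031 SE, adjusted p = 0.727, which did not pass, and its change against RNO_CIRCpedia_668_16_27 differed by -0.66 ± 0.052 SE, adjusted p = 5.25e-05. All 3 probes carry the same 29 bases before their joints.

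By size of the difference, the first pair between BHD and model was RNO_CIRCpedia_136_14_14 with RNO_CIRCpedia_4565_11_1012, at 1.07 ± 0.25 SE, adjusted p = 0.0224. This pair is part of a family of 3 probes, whose remaining probe is not given here. The dim partner, RNO_CIRCpedia_136_14_14, was well above background on 1 model array and 3 BHD arrays, so that size is not well measured (0.315 with normexp), and the call was lost on leaving out model replicate 1, 2 or 3, or BHD replicate 1 or 2. The second was RNO_CIRCpedia_10096_16_19 with RNO_CIRCpedia_4172_0_26, given above. The third, from a family of 6 probes, was RNO_CIRCpedia_4041_0_10 with RNO_CIRCpedia_8819_16_44, at -0.84 ± 0.11 SE, adjusted p = 0.00105. The first of these stood at 0.63 ± 0.17 in model and 0.54 ± 0.18 in BHD arrays, the other at -3.45 ± 0.42 and -2.70 ± 0.32. Neither passed alone (adjusted p = 0.786 and 0.078), and with normexp the difference was -0.468.

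The comparison of BHD with control asks what sets treated model animals apart from normal ones. Here 89 members were called (9.93%, against 10.7% of all tested probes), 53 higher (5.92%, against 3.85%) and 36 lower (4.02%, against 6.89%). The split depended on the setting: it was 81 higher and 35 lower with cyclic loess normalization, 44 and 43 with normexp, and 48 and 50 without BHD replicate 2. The median change was -0.0038 among members, -0.0076 among the other CIRCpedia probes and -0.032 among all tested probes. Called changes of members had a median size of 0.397. Leaving out control replicate 1 gave 57 calls, control replicate 2 gave 48, control replicate 3 gave 49 and control replicate 4 gave 45. Leaving out BHD replicate 1 gave 50 and BHD replicate 3 gave 47. In 11 families at least 2 members were called the same way and in 2 families members were called both ways.

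The largest rises were in a single pair, which share a run of 36 bases at the exon end. RNO_CIRCpedia_2817_10_33 read -2.11, -2.21, -2.03 and -2.21 on the control arrays, -1.45, -1.11, -1.10 and -0.545 on the model arrays and -0.57, -0.93, -1.17 and -0.96 on the BHD arrays. RNO_CIRCpedia_2816_2_14 read -1.47, -1.69, -1.54 and -1.70, then -1.06, -0.73, -0.50 and -0.0652, then -0.0953, -0.50, -0.73 and -0.64 in the same order of groups. In both probes every model and BHD array was above every control array, and the model and BHD arrays overlapped. The rises over control with BHD were 1.23 ± 0.17 SE, adjusted p = 0.00294 (2.35-fold) and 1.11 ± 0.19 SE, adjusted p = 0.00735 (2.15-fold). The changes from control to model were 1.09 ± 0.17 SE, adjusted p = 0.0514 and 1.01 ± 0.19 SE, adjusted p = 0.09, which did not pass. Between BHD and model they were 0.145 ± 0.17 SE, adjusted p = 0.754 and 0.0988 ± 0.19 SE, adjusted p = 0.866. The partners' changes from control to BHD differed by -0.13 ± 0.057 SE, adjusted p = 0.208, which did not pass.

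The largest fall was at RNO_CIRCpedia_8340_15_28, which read -2.59, -3.75, -3.20 and -3.68 on the control arrays, -4.54, -4.85, -4.07 and -4.92 on the model arrays and -5.21, -4.95, -5.11 and -4.78 on the BHD arrays. Every model and BHD array was below every control array. The fall with BHD was -1.71 ± 0.26 SE, adjusted p = 0.00388 (3.26-fold), and the change from control to model was -1.29 ± 0.26 SE, adjusted p = 0.0934, which did not pass. With normexp the fall with BHD was -0.538. Its partner RNO_CIRCpedia_6416_0_22, with 31 bases in common at the exon end, read -2.83, -2.74, -2.20 and -2.94 on the control arrays, -2.45, -2.36, -2.50 and -2.40 on the model arrays and -2.56, -2.40, -2.11 and -2.50 on the BHD arrays, with overlapping groups. The changes of this pair differed by 1.99 ± 0.3 SE, adjusted p = 0.00212, the largest difference in this comparison, and by 0.724 with normexp. The second fall was that of RNO_CIRCpedia_9123_14_11 (-0.64 ± 0.071 SE, adjusted p = 0.00111), whose values are given above.

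The family closing in atgcag had 3 of 4 probes called higher with BHD against control. RNO_CIRCpedia_5380_16_70 read -2.96, -3.01, -3.33 and -2.80 on the control arrays, -2.59, -2.75, -2.60 and -2.45 on the model arrays and -2.31, -2.24, -2.22 and -2.10 on the BHD arrays. The 3 groups did not overlap, and the rise was 0.81 ± 0.11 SE, adjusted p = 0.00253, or 0.41 with normexp. RNO_CIRCpedia_5381_13_20 rose by 0.49 ± 0.093 SE, adjusted p = 0.0104, and RNO_CIRCpedia_2504_16_22 by 0.42 ± 0.098 SE, adjusted p = 0.0227. The brightest of the family, RNO_CIRCpedia_2503_0_22, had a change of 0.28 ± 0.1 SE, adjusted p = 0.1, which did not pass. Its change differed from that of RNO_CIRCpedia_5380_16_70 by -0.52 ± 0.085 SE, adjusted p = 0.00337, but with normexp by -0.157 (adjusted p = 0.175). RNO_CIRCpedia_2504_16_22 lost its call on leaving out control replicate 2, 3 or 4, or BHD replicate 1, 3 or 4.

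In the family closing in ctaaag, 4 of 5 probes were called lower with BHD against control and RNO_CIRCpedia_668_16_27 was not (0.0284 ± 0.13 SE, adjusted p = 0.91). The change was -0.64 ± 0.13 SE, adjusted p = 0.0136 at RNO_CIRCpedia_667_7_19 and -0.61 ± 0.12 SE, adjusted p = 0.0133 at RNO_CIRCpedia_669_11_20. RNO_CIRCpedia_673_16_19 and RNO_CIRCpedia_674_11_12, tied to the family only by the exon start, fell too, with changes of -0.36 ± 0.061 SE, adjusted p = 0.00664 and -0.36 ± 0.064 SE, adjusted p = 0.00774. These 4 falls were called in all 24 other settings.

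Between BHD and control, 79 of 609 family pairs changed unequally (13%, against 9.87% of all pairs sharing sequence), in 60 families. The brighter partner moved down in 70 of these 79 pairs and in 419 of all 609, called or not. In the pair of RNO_CIRCpedia_10187_9_14 and RNO_CIRCpedia_4500_16_5, with a common exon end, both partners passed in opposite directions. The dimmer read -3.27, -3.65, -3.37 and -3.25 on the control arrays, -3.04, -3.56, -3.14 and -3.01 on the model arrays and -2.82, -2.57, -2.94 and -2.79 on the BHD arrays. The brighter read -0.73, -0.86, -0.54 and -0.50 on the control arrays, -0.87, -0.85, -0.92 and -0.80 on the model arrays and -1.19, -1.49, -1.41 and -0.92 on the BHD arrays. For each, every BHD array lay beyond every control array. The dimmer rose by 0.60 ± 0.14 SE, adjusted p = 0.0204, and the brighter fell with a change of -0.595 ± 0.12 SE, adjusted p = 0.0151, with a difference of 1.20 ± 0.16 SE, adjusted p = 0.00138. With normexp the rise was 0.278 and the difference 0.778, and the rise lost its call without control replicate 2 (adjusted p = 0.0536). The pair of RNO_CIRCpedia_3231_14_23 and RNO_CIRCpedia_9828_16_1004, with a common exon start of 29 bases, is part of a family of 6 probes, whose remaining probes are not given here. In this pair the dimmer, RNO_CIRCpedia_9828_16_1004, rose from -3.72 ± 0.23 in control to -3.02 ± 0.071 in BHD arrays (0.70 ± 0.15 SE, adjusted p = 0.0151), a rise of 0.278 with normexp. The other had a change of -0.11 ± 0.1 SE, adjusted p = 0.511, and the difference was -0.81 ± 0.12 SE, adjusted p = 0.00174, or -0.409 with normexp.

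The gap between partners was smaller on slide 2 in pairs of wide gap and in pairs with a common donor end, and overlapped between the slides in pairs of narrow gap and in pairs with a common acceptor start. Over all 609 tested pairs, the median gap from brighter to dimmer partner was 0.874, 0.826, 0.815 and 0.828 on the control arrays and 0.821, 0.831, 0.82 and 0.784 on the model arrays. On the BHD arrays it was 0.717, 0.738, 0.752 and 0.723, below every array of slide 1. Over the 587 pairs well above background throughout it ran from 0.754 to 0.818 on slide 1 and from 0.692 to 0.725 on slide 2. Pairs with a common donor end had gaps of 0.66 to 0.699 on slide 1 and 0.597 to 0.631 on slide 2. In pairs with a common acceptor start the gaps of 1.03 to 1.15 on slide 1 and 1.02 to 1.05 on slide 2 overlapped. The 127 pairs with a level gap of 2 or more had gaps of 2.8 to 3.02 on slide 1 and 2.58 to 2.74 on slide 2. In the 357 with a level gap under 1, the ranges of 0.342 to 0.371 and 0.339 to 0.35 overlapped. Between BHD and model the brighter partner had the lower change in 116 of those 127 pairs and in 212 of those 357, called or not. In the other pairs sharing sequence the median gap was 0.504 ± 0.013 in control, 0.504 ± 0.018 in model and 0.502 ± 0.012 in BHD arrays (SD, n = 4). The 217 of those pairs with a level gap of 2 or more had gaps of 3.12 to 3.3 on slide 1 and 2.95 to 3.05 on slide 2. The slope of the spike-in probes, a measure of how signal follows added RNA, was 0.967 ± 0.0056, 0.976 ± 0.023 and 0.973 ± 0.0036 in control, model and BHD arrays. The members with a joint after base 29 had a median change of 0.134 between BHD and model, those with a joint after bases 30 to 44 had 0.016 and those with a joint after base 45 had -0.0081. In these gaps too, BHD and slide cannot be told apart.

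The largest family held 8 probes, of which 6 were tested. Its brightest probe on all 12 arrays was RNO_CIRCpedia_5658_16_38, at -0.54 ± 0.16 in control, -0.90 ± 0.16 in model and -0.82 ± 0.14 in BHD arrays. From control to model the 6 changes ran from -0.45 to -0.215, and none passed (adjusted p 0.155 to 0.248). RNO_CIRCpedia_3280_16_32 was well above background on 3 control, 0 model and 3 BHD arrays, and RNO_CIRCpedia_5659_6_25 on 1, 0 and 2, so neither was tested. The next family had 7 probes, led by RNO_CIRCpedia_5023_16_1021 at 1.03 ± 0.095, 0.84 ± 0.051 and 1.03 ± 0.089. None of its probes was called in any comparison, but RNO_CIRCpedia_1499_2_18 and RNO_CIRCpedia_1501_15_22, which share 20 bases after the joint, changed unequally between BHD and model (-0.39 ± 0.082 SE, adjusted p = 0.0128). RNO_CIRCpedia_1501_15_22 read 0.685, 0.58, 0.63 and 0.64 on the model arrays and 0.90, 1.02, 0.85 and 0.82 on the BHD arrays, with no overlap, and its change of 0.26 ± 0.077 SE, adjusted p = 0.0947 did not pass.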

How the data were processed

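Total RNA was labelled with Cy3 and hybridised to Agilent arrays of a single colour, 1 array a sample. The submitters' processing notes name Agilent Feature Extraction 10.7.1.1 as the reader of the images. The deposited scanner output holds the processed intensity of each spot in linear units, with background already corrected per the file headers, and flags of 0 or 1 for other properties of a spot, such as signal well above background. The deposited value table holds log2 values made by the authors by steps not given in the sources used here. It served as an alternative, with its centring read from its values.

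Here, the log2 of processed intensity was averaged over the spots of each probe, leaving out control and outlier spots, and the 75th percentile of each array was subtracted. Groups came from the sample titles. Changes were tested with limma (version 3.58.1, R 4.3.3; lmFit, contrasts.fit, eBayes) with a mean per group over all 12 arrays and Benjamini-Hochberg adjustment over all tested probes, or over all tested pairs. The scripts were tested on simulated data. The labels call most samples biological replicates but tie none to an animal, so p-values reflect only how much these samples vary, which may be technical, and 4 arrays a group limit the precision.

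Named were, per comparison, the 2 largest rises and falls, up to 3 pairs with the largest unequal change and up to 3 families with at least 2 members called the same way. The 2 largest families, 3 whose brightest probe differed between groups and the 3 brightest were also named. Members, lists and this rule were chosen with earlier results of these data known. Lists of genes and cell type markers could not be run, since no file pairs probes with genes. Alternatives were quantile and cyclic loess normalization (the latter chosen after seeing the data), another percentile, normexp with an offset of 50, the deposited table, other filters, fits of only 2 groups, a replicate block, other limits of shared sequence, and each array left out.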

Additional observations from a re-analysis of the deposited data

Results flagged for a closer look

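In 5 of 90 groups of 4 values looked at, a single array lay apart from the other 3 by more than Dixon's 95% limit, which chance passes in about 5% of groups. For RNO_CIRCpedia_8929_16_7, model replicate 3 read -1.38 and the other model arrays -1.2 to -1.18. For RNO_CIRCpedia_565_16_17, model replicate 1 read 0.76 against 0.678 to 0.682, and BHD replicate 1 read 0.348 against 0.451 to 0.471. For RNO_CIRCpedia_4050_1_8, control replicate 1 read -0.347 against -0.179 to -0.147. For RNO_CIRCpedia_4104_16_23, model replicate 1 read 4.25 against 4.37 to 4.39. The median gap between partners had no array that stood apart in this way in any group.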

How the results depend on the processing

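No change of a named probe or pair that was called changed direction in any setting. Of 1482 such values under alternatives, 1297 kept their call and 185 lost it, and the cause was not tested. Counts of members called between model and control were 1 with quantile normalization, normexp, the deposited values, cyclic loess or the filter on all 12 arrays, and 0 to 2 without single arrays. The unequal pair of that comparison was 0 with only the 2 groups compared, the replicate block or at least 15 shared bases, and 0 to 1 without single arrays. Between BHD and model, 18 members were called with only 2 groups and 11 to 35 without single arrays, and 41 pairs with at least 15 shared bases, a rule that gives other members. Between BHD and control, 59 members were called with no filter, which tests more probes, and 45 to 98 without single arrays. Called unequal pairs ran from 58 to 84 (BHD and model) and 55 to 83 (BHD and control) without single arrays, and the brighter partner moved down in 79 of 100 called pairs with normexp (BHD and model) and in a larger share with the other normalizations. The share of families with a constant brightest probe was 80.3% to 82.6% in every setting in which it was computed.

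The correlations of the deviations of samples with the same replicate number ran from -0.194 to 0.243. No values for samples with different numbers stand beside them, so they cannot decide whether the numbers pair samples. With the replicate block the members called were 0, 23 and 59, and the unequal pairs 0, 70 and 78, in the order model against control, BHD against model and BHD against control. Dim probes had smaller changes with normexp, and signal over background limits them.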
